A study of Mus musculus with 2 samples.

Results

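The AP-1 and Egr immediate early factors are 10 genes: Fos, Fosb and Fosl2 of the Fos family, Jun, Junb and Jund of the Jun family, Atf3, and Egr1, Egr2 and Egr3 of the Egr family. They were taken by name from the 43346 mouse genes of the deposited gene tables, and all 10 were found. No cut on measured values was used, but the choice was made with earlier results of these data known. Polyadenylated RNA was sequenced from adipose tissue of a male C57BL/6J mouse 10 weeks old, with no treatment named. The series holds 1 group: 2 technical libraries of 1 biosample. Library 2 is dated to 2015 and lies outside the 2014 publication named for the series; the labels give no date for library 1. With 1 library on each side, every ratio below compares these 2 libraries and has no replicate check. In whole tissue, a level also cannot be divided into the number of cells of a type and the RNA per cell.

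AP-1 is a dimer of basic leucine zipper proteins. A Fos protein pairs with a Jun protein through the zipper, Jun proteins can also pair with each other, and the basic region beside the zipper grips the DNA at the AP-1 site. Fos, Fosb, Jun, Junb, Atf3 and the Egr genes are transcribed within minutes of a stimulus without new protein synthesis, mostly through SRF and its ternary complex partners and through MAP kinases, and their mRNAs are short-lived. Jund is present at a steadier level in resting cells. Egr proteins are zinc finger factors that bind GC-rich sites and are held in check by the Nab corepressors. In fat tissue, Fos, Egr2 and relatives are known from the first hours of adipocyte differentiation. Several genes of the group are also known to be induced when tissue is dissected.

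The sequences below show how far the GC content of the transcripts differs inside 1 conserved protein feature. Each is a coding stretch of 24 codons from the GENCODE M21 transcripts on mm10, written 5′ to 3′ on the coding strand, with capitals marking a G or C at the third position of a codon. The first 4 encode the basic region that contacts DNA: Fos at chr12:85475625-85475696 (plus strand, exon 3 of 4), Jun at chr4:95050420-95050491 (minus strand), Junb at chr8:84977548-84977619 (minus strand) and Jund at chr8:70699859-70699930 (plus strand). Jun, Junb and Jund have a single exon.
Fos: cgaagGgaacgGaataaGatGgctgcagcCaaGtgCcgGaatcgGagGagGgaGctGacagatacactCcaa
Jun: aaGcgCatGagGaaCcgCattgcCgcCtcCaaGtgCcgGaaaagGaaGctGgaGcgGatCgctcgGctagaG
Junb: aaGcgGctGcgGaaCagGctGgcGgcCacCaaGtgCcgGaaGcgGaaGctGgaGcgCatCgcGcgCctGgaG
Jund: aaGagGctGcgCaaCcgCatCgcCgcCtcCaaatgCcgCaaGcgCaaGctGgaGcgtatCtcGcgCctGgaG
In Junb all 24 codons end in G or C, against 22 in Jund, 20 in Jun and 14 in Fos. The Jun and Junb stretches encode the same amino acid at 21 of 24 positions but share 57 of 72 bases. Their GC content was 61.1% in Jun and 70.8% in Junb, against 55.6% in Fos. Fosb and Fosl2 lay between Fos and Jun, with 15 and 17 codons ending in G or C.

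The next 2 stretches are the matching pair from the Egr zinc fingers, covering the end of 1 finger, the linker and the start of the next: Egr2 at chr10:67540710-67540781 (plus strand, exon 2 of 2) and Egr3 at chr14:70079690-70079761 (plus strand, exon 3 of 3).
Egr2: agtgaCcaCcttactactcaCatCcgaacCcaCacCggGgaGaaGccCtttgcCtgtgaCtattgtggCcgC
Egr3: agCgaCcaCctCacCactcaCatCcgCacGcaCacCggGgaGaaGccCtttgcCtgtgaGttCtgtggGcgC
They encode the same amino acid at 22 of 24 positions, and 16 of those use the same codon. The stretch of Egr3 has 20 codons ending in G or C and that of Egr2 has 15. Over the whole coding region of 1 transcript each, the share of codons ending in G or C was lowest in Egr2 (58.7%) and Atf3 (60.8%) and highest in Jund (84.8%), Jun (81.7%) and Egr3 (79.7%).

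Library depth was 19954869 and 19256807 expected counts, the authors' estimates of the reads of each gene. TPM scales counts by length and by the library's total, and mitochondrial genes with their chromosome 1 copies held 51.7% of all TPM in library 1 and 15.9% in library 2. Levels in TPM are therefore set beside each other within a library only. Ratios between libraries below are log2 ratios of counts, library 2 over library 1, scaled by TMM with 0.5 added to each count. These ratios went with transcript GC content, as given below. Whether GC content also bears on levels within a library, and so on ranks and family shares, was not tested. At 1 kb of transcript, 3 counts correspond to 0.175 and 0.224 TPM. All 8 adipocyte markers were above 1 TPM in both libraries, with a summed level of 6688 and 15292 TPM. All 8 epididymis epithelium markers were too, at 41760 and 46715 TPM, led by Gpx5 at 14177 and 15610 TPM, although the tissue is labelled adipose. All 6 macrophage markers were above 1 TPM, with sums of 96.0 and 375 TPM, and all 6 vascular and stromal markers, with sums of 1261 and 1588 TPM. Their part in the levels of the factors was not tested.

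The levels of the factors spanned from Egr2, at 33.46 and 110.97 TPM in libraries 1 and 2, to Egr3, at 0.05 and 0.79 TPM. The 3 highest were Egr2, Fos and Egr1, in that order, in both libraries, and Egr3 was the lowest in both. The 10 factors summed to 85.0 and 334 TPM. In every case the level in TPM was higher in library 2, and 8 of the 10 were at 1 TPM or more in both. The 2 below 1 TPM in library 1 were Junb and Egr3.

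**Figure D1:**
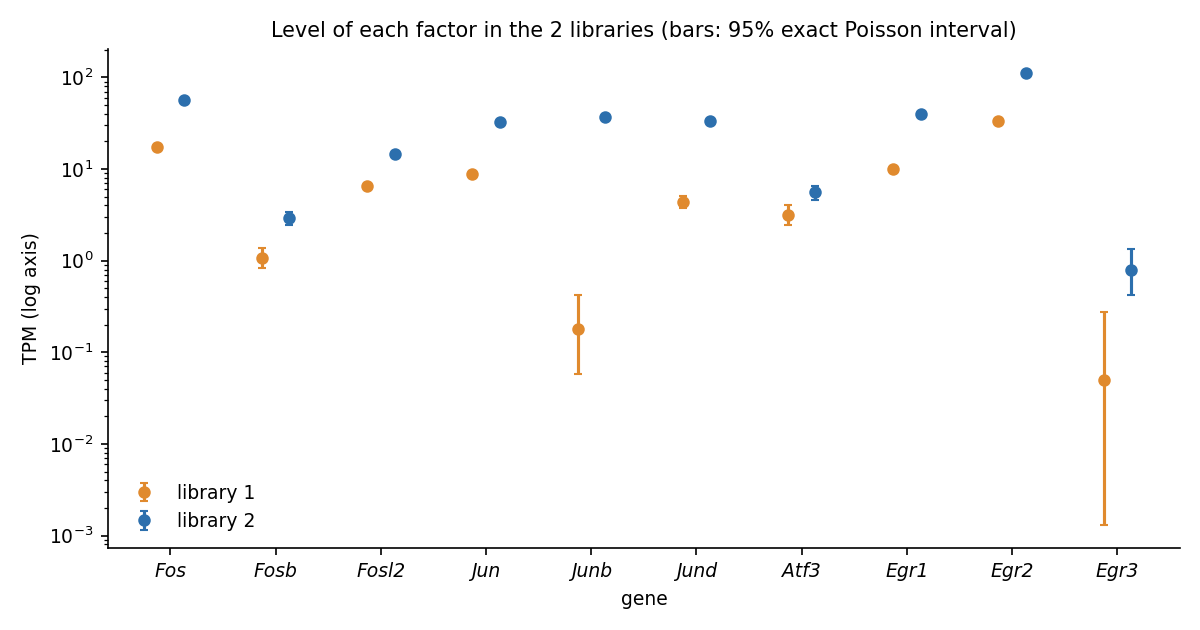
Level of each factor in TPM on a log axis (vertical) by gene (horizontal), library 1 in orange and library 2 in blue, with 95% exact Poisson intervals of the counts as bars. Junb went from 0.18 TPM, next to the lowest, to 36.91 TPM, among the upper 4, while the order of Egr2, Fos and Egr1 was the same in both libraries.

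In the Fos family, Fos, the prototype of the inducible Fos subunits, had 532 and 1353 counts in libraries 1 and 2, that is 17.41 TPM (95% exact Poisson interval 15.96 to 18.95) and 56.44 TPM (53.5 to 59.5). The log2 ratio was 0.96 with a 95% exact Clopper-Pearson interval of 0.81 to 1.11. With 1 library on each side, intervals cover counting error only. Reads that carry no molecular identifier may be copies of 1 molecule, and the intervals do not allow for such copies. Fosl2, encoding Fra-2, had 639 and 1119 counts, or 6.59 and 14.74 TPM. Its log2 ratio of 0.42 (interval 0.28 to 0.56) was the smallest of the 10 and stayed under 2-fold over the whole interval. Fosb, whose product resembles Fos and is known for a long-lived splice form, had 65 and 138 counts, or 1.07 and 2.89 TPM. Its log2 ratio was 0.69 (0.26 to 1.15). Fos made up 69.4% of the family's TPM in library 1 and 76.2% in library 2, Fosl2 26.3% and 19.9%, and Fosb 4.27% and 3.90%, so the order inside the family was the same in both. Fosl1, the remaining Fos relative, had 3 counts in each library, which is at the floor.

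The makeup of the Jun family by TPM differed between the libraries. Jun, the main Fos partner, had 448 and 1308 counts, or 8.72 TPM (7.93 to 9.57) and 32.52 TPM (30.8 to 34.3), and a log2 ratio of 1.16 (1.00 to 1.32). Jund, the subunit kept up in resting cells, had 201 and 1203 counts, or 4.37 TPM (3.79 to 5.02) and 33.36 TPM (31.5 to 35.3). Its log2 ratio was 2.19 (1.98 to 2.42). Junb, which can oppose Jun at some promoters, had 5 and 818 counts, or 0.18 TPM (0.058 to 0.42) and 36.91 TPM (34.4 to 39.5).

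The log2 ratio of Junb was 6.83 (5.74 to 8.59), a 114-fold difference with an interval of 53.4 to 386, and its interval lay above those of Jun and Jund. With 5 added to each count the log2 ratio is 5.98. By TPM, Jun held 65.7% of the family in library 1, Jund 32.9% and Junb 1.36%. In library 2 Jun held 31.6%, Jund 32.5% and Junb 35.9%. These shares rest on the deposited length of the Jund transcript; with GENCODE M21 lengths, a choice made after the data were seen, Jund would hold 47.1% and 46.3%, and Junb 1.09% and 28.8%. The summed Jun family stood at 0.529 of the summed Fos family in library 1 and at 1.39 times it in library 2 (0.692 and 1.80 with the M21 lengths). For the pair Fos and Jun alone, Fos was at 2.00 and 1.74 times the TPM of Jun, so that the reversal of the family sums goes with Junb and Jund.

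Atf3, a stress-induced bZIP factor that pairs with Jun proteins and is also a repressor as a dimer with itself, had 62 and 130 counts. Its level was 3.18 TPM (2.44 to 4.08) in library 1 and 5.55 TPM (4.64 to 6.59) in library 2. The log2 ratio was 0.68 (0.23 to 1.14).

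In the Egr family, Egr2, known as Krox20, had 1545 and 3754 counts, or 33.46 TPM (31.8 to 35.2) and 110.97 TPM (107.4 to 114.6). This put Egr2 above 89.1% of protein-coding genes in library 1 and above 94.8% in library 2. The log2 ratio was 0.89 (0.81 to 0.98), under 2-fold over the whole interval. Egr1, the family member most widely used as a marker of a stimulus, had 494 and 1567 counts, or 9.98 and 39.99 TPM, with a log2 ratio of 1.28 (1.13 to 1.43). Egr3 had 1 count in library 1 and 13 in library 2, so its log2 ratio of 2.78 has an interval from 0.58 to 8.72 and is poorly fixed, and with 5 added to each count it is 1.20. Egr2 stood at 3.35 times the TPM of Egr1 in library 1 and at 2.77 times it in library 2. It took 76.9% and 73.1% of the family's TPM.

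Some neighbours in the order of levels could not be separated within their counting intervals. In library 1 these were Egr1 and Jun, Jund and Atf3, and Junb and Egr3. In library 2 Egr1, Junb, Jund and Jun ran from 39.99 down to 32.52 TPM, and each overlapped the next. Over the 2 libraries, the mean was 72.2 ± 54.8 TPM for Egr2, 36.9 ± 27.6 for Fos, 18.5 ± 25.97 for Junb and 4.37 ± 1.68 for Atf3 (SD, n = 2 technical libraries), and the SD of Junb exceeded its mean. The level of Jund also depends on the gene model. The deposited model of its transcript is 2878 bases long and that of GENCODE M21 1668 bases. With the M21 lengths Jund would stand at 7.94 and 60.6 TPM, rank 5 in library 1 and rank 2 in library 2.

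A gene was counted as different between the libraries where its ratio was at least 2-fold, among genes reaching 10 counts in the sum of both. By this rule 5 of the 10 factors were higher in library 2 (Jun, Junb, Jund, Egr1 and Egr3) and 0 were lower. Among all 18275 genes, 31.3% were at least 2-fold higher and 19.9% at least 2-fold lower. The rule is a fold, not a replicate test; when an exact two-sided binomial p, Benjamini-Hochberg adjusted over all genes and covering counting error alone, was required as well, there were again 5 and 0. The intervals of Jun, Junb, Jund and Egr1 lay wholly above 2-fold, those of Fosl2 and Egr2 wholly under it, and those of Fos, Fosb, Atf3 and Egr3 spanned it. The interval lay above no difference for all 10, and the median log2 ratio was 1.06 against 0.02 over all genes. Scaling by total counts moves all ratios up by 0.44. It then gives 9 factors higher and 0 lower, with 38.4% of all genes higher and 7.62% lower.

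Transcript GC content, the share of G and C bases averaged over the annotated transcripts of a gene, was above the 50.3% median of all tested genes in every one of the factors. It ran from 51.1% in Atf3, 54.4% in Fosl2, 54.5% in Egr2, 55.1% in Fos, 55.5% in Egr1 and 55.5% in Jun to 56.3% in Egr3, 56.7% in Fosb, 62.7% in Junb and 67.1% in Jund. Across all tested genes the log2 ratio went with GC content, with a Spearman rho of 0.835 (over genes, which share the same 2 libraries and are not replicates). Across the 10 factors, Spearman's rho was 0.75 and Pearson's r 0.60, given as a description. Both use the mean over annotated transcripts and may differ with another GC measure. Egr3, second in ratio, rests on 1 and 13 counts, and its GC content was 51.3% in its longest transcript and 62.2% with isoform weights.

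The factors were then set beside genes of like mean GC content. Fos, Fosb, Jun and Egr1 fall between 55% and 60% GC, where the ratios of 3623 genes had a median of 2.34 and quartiles of 1.34 and 3.46, and where 82.3% were at least 2-fold higher. All 4 were below that lower quartile. Egr3, in the same range, lay between the quartiles. Fosl2, Egr2 and Atf3 fall between 50% and 55%, with a median of 0.64 and quartiles of -0.01 and 1.43 over 5062 genes, and all 3 lay between those quartiles. Junb, between 60% and 65%, was above the upper quartile of 5.10 of 637 genes. Jund, the factor richest in GC, lay just above the lower quartile of 2.15 of the 61 genes at 65% or more. These places depend on how GC content is measured. With isoform-weighted GC content Fosb, Jun and Jund were below the lower quartile of their bins, Junb was above the upper one, and the other 6 lay between. With that of the longest transcript Fosb, Jun, Jund and Egr1 were below it and Junb and Egr3 above the upper one.

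**Figure D2:**
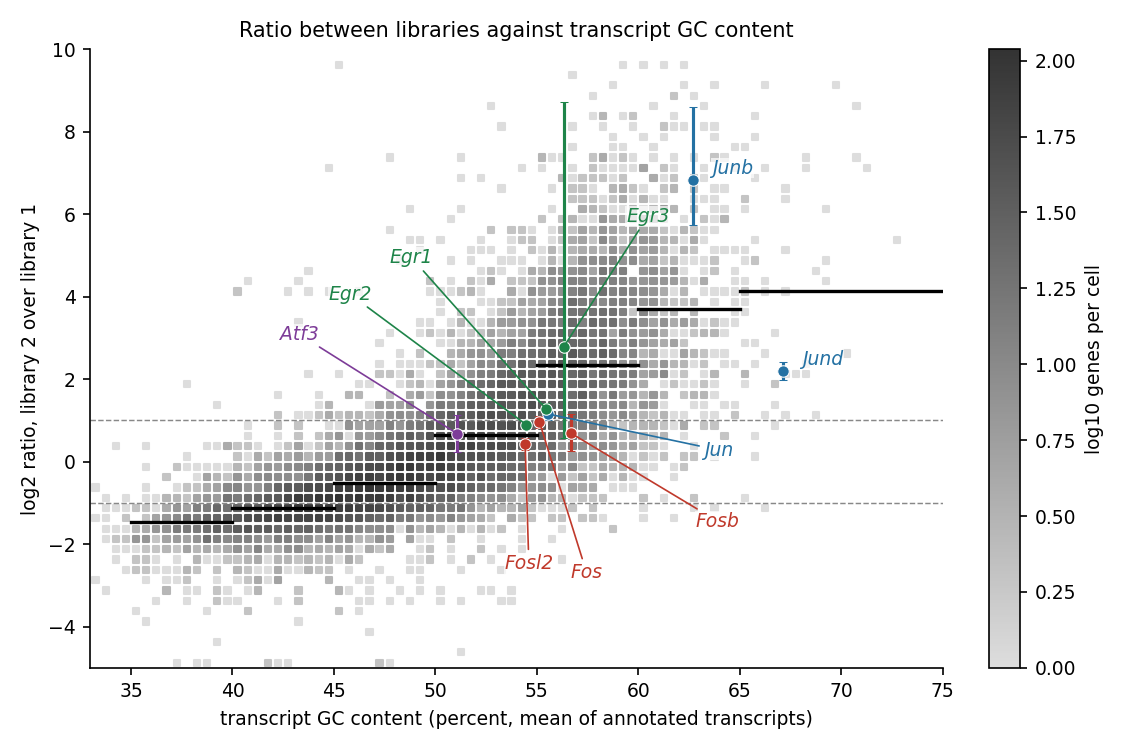
Log2 ratio of library 2 over library 1 (vertical) against transcript GC content in percent (horizontal). Grey cells hold the tested genes, shaded by log10 of the number of genes, black bars are medians in 5-point GC bins, dashed lines mark 2-fold, and coloured points are the 10 factors with 95% Clopper-Pearson intervals; Junb sits above the bar of its bin, and Fos, Fosb, Fosl2, Jun, Egr1 and Jund sit below theirs.

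When the GC trend was taken out of the ratios, by subtracting the median ratio of genes of the same GC content, the median of the group changed sign. The median over the 10 factors became -0.54, with 1 at least 2-fold higher, Junb at 2.999, and 2 at least 2-fold lower, Jund at -1.64 and Fosb at -1.60. Among all genes 13.5% were then higher and 11.5% lower. Fos stood at -0.57, Jun at -0.55, Egr1 at -0.39, Egr2 at -0.53 and Fosl2 at -0.97 on this scale, Atf3 at 0.43 and Egr3 at 0.64. Junb and Jund lie beyond the centre of the GC-richest bin and had the same value, 3.83, subtracted. How GC content is measured bears on these values. With transcripts weighted by the authors' isoform shares, a choice made after the data were seen, Fos was at 0.22, Egr1 at 0.06 and Egr2 at 0.26, Egr3 at -1.52 and Jund at -2.12, while Junb stayed at least 2-fold higher at 2.52. For Jund, GC content covers only part of the deposited model, since 1210 of its bases have no sequence among the transcripts used.

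GC content was spread unevenly along the transcripts. In windows of 200 bases moved by 25, the share of windows at 65% GC or more was 71.2% in Jund, 55.4% in Junb, 28.3% in Egr3, 25% in Jun and 11.02% in Fosl2. It was 9.72% in Atf3, 9.03% in Fosb, 7.89% in Egr1, 1.299% in Fos and 0.90% in Egr2. In Fos the coding region was at 58.6% GC and the 3′ UTR at 40.3%, and in Jun at 63.2% and 43.9%. In Junb the values were 64.8% and 53.3%, and in Jund 70.7% and 57.5%. The 3′ UTR of Fosb, at 53.2%, was as rich in GC as that of Junb, and that of Egr3, only 53 bases long in the transcript used, was at 60.4%. Those of Atf3 (49.6%), Fosl2 (49.0%), Egr2 (44.6%) and Egr1 (42.8%) lay below them.

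**Figure D3:**
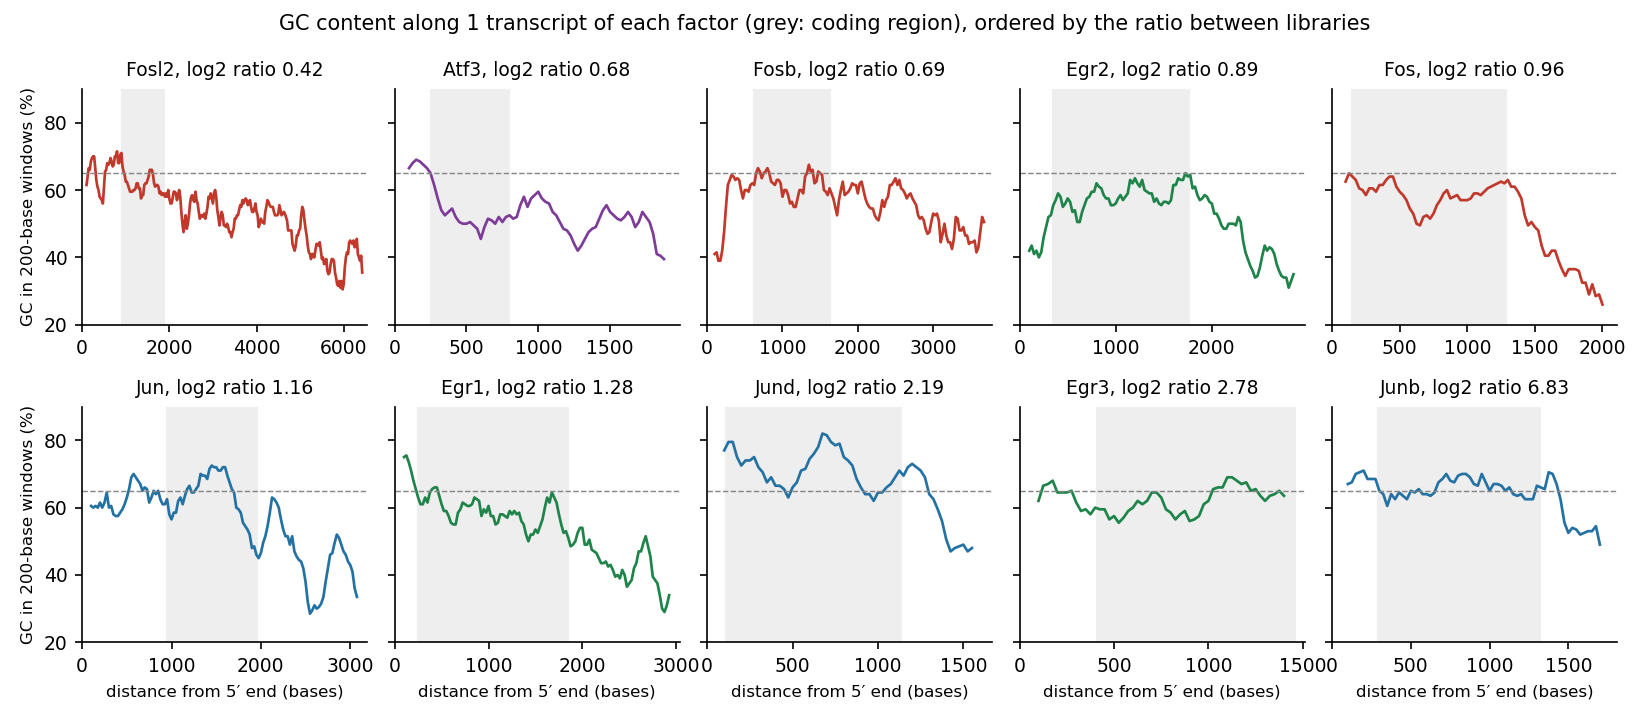
GC content in percent (vertical) of 200-base windows against distance from the 5′ end in bases (horizontal) for 1 annotated transcript of each factor, ordered by log2 ratio, with the coding region in grey and a dashed line at 65%. Jund and Junb stay near or above the line over most of their length, whereas Fos, Fosb, Fosl2, Jun, Atf3, Egr1 and Egr2 drop below 45% towards the 3′ end.

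The counts of the 10 factors at gene level were whole numbers (within 0.005), so no reads were split between them and another gene. Reads were split between transcripts of the same gene in Fos, Egr1, Egr2 and Atf3, the 4 factors with more than 1 transcript in the deposited tables. In Fos the 2108-base transcript held 89.8% and 89.9% of the gene's TPM, and in Egr1 the 3036-base transcript held 96.9% and 94.8%. Both were alike in the 2 libraries.

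In Egr2 the leading transcript differed. The 2864-base form had 26.08 and 4.63 TPM, and the 2965-base form 7.38 and 78.06 TPM. The share of the gene's TPM held by the 2965-base form was 22.1% and 70.3%. A 2665-base form was listed at 0 in library 1 and at 18.07 TPM in library 2. The authors' posterior SD, their own measure of the uncertainty of assigning reads, was 93.2 and 119 counts for the 2965-base form, beside 351 and 2905 expected counts.

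In Atf3 the 1984-base transcript was listed at 0 in library 1 and at 5.36 TPM in library 2, while the 1906-base transcript had 1.85 and 0 TPM. These rest on 54.5 expected counts in library 1 and 129 in library 2, with posterior SDs of 11.5 and 8.23 counts. In library 1 the authors' intervals of the 3 forms overlapped, at 0.50 to 2.21 TPM for the 1906-base form, 0.016 to 2.72 TPM for a 517-base form and 0 to 1.13 TPM for the 1984-base form, so the leading form there was not resolved. The split among forms also moves the effective length that TPM divides by, which for Atf3 was 1139 bases in library 1 and 1749 in library 2.

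**Figure D4:**
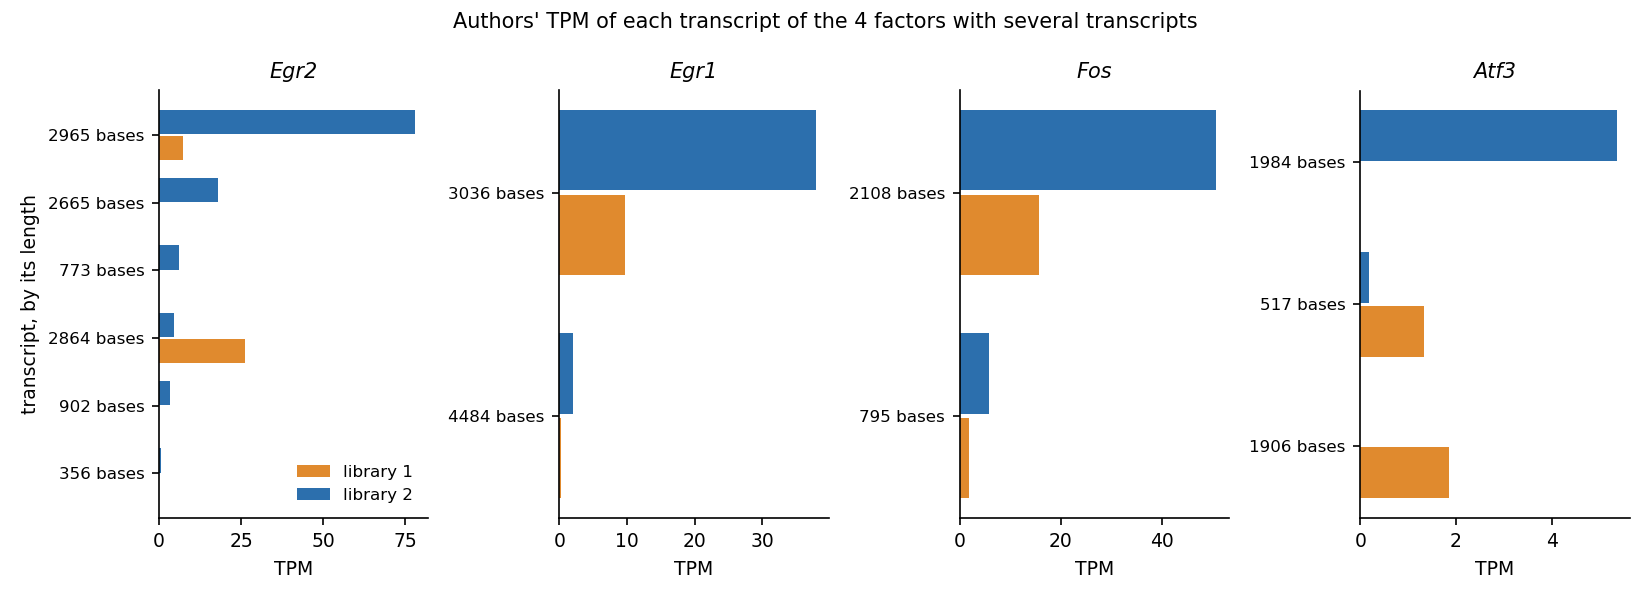
TPM (horizontal) of each transcript, named by its length in the deposited tables (vertical), for Egr2, Egr1, Fos and Atf3, library 1 in orange and library 2 in blue; transcripts under 0.1 TPM in both are left out. The leading transcript is the same in both libraries for Egr1 and Fos and another one for Egr2; for Atf3 the leading form of library 1 was not resolved.

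Genes on the opposite strand overlap 4 of the factors. Whether the counting used strand is not given in the sources used here, so reads in the overlaps cannot be assigned to a strand with certainty. Junb shares 351 bases of gene body with Prdx2, an antioxidant enzyme gene with 420 and 2491 counts. The gene body of Junb, from 84974484 to 84978718 on chromosome 8, is longer than its deposited transcript of 1840 bases. Whether the shared bases lie in that transcript was not tested. Jun shares 689 bases with the antisense gene Junos (36 and 39 counts), Jund 919 bases with Gm11175 (0 and 4 counts), and Atf3 108 bases with Gm24748 (0 in both).

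Among the genes upstream of the factors, SRF and its partners were all above 1 TPM in both libraries. Of 6 tested, 2 reached 2-fold higher in library 2 and 0 lower, with a median log2 ratio of 0.25. For this list and those that follow, the background is 31.3% of all tested genes at least 2-fold higher and 19.9% at least 2-fold lower. Srf itself, which binds the serum response elements of Fos and Egr1, went from 1.09 to 17.35 TPM, a log2 ratio of 3.24 (2.90 to 3.61) at 60.7% GC. Its partners Elk4 and Elk3 had log2 ratios of -0.44 and 0.10. Of 15 MAP kinase pathway genes, 6 were higher and 2 lower, with a median of 0.41. Mapk9 (JNK2) was at 70.6 and 50.6 TPM and Rps6ka3 (RSK2) at 75.03 and 40.03, and the last was at least 2-fold lower with a log2 ratio of -1.55. Of the 7 phosphatases that switch MAP kinases off, 3 were higher and 0 lower, with a median of 0.86. Dusp1, itself an immediate early gene, resembled Fos and Jun in counts, 462 and 1350, with a log2 ratio of 1.16 (1.01 to 1.32), whereas Dusp6 was at 0.00 and Dusp16 at -0.47.

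Of 16 further bZIP factors that can pair or compete with Fos and Jun proteins, 15 were tested, 7 were higher and 3 lower, and the median was 0.27 at the same median GC content as the factors (55.5%). Atf4, the factor of the integrated stress response, was the most abundant at 63.8 and 126 TPM with a log2 ratio of 0.24, followed by Nfe2l2, the oxidative stress factor NRF2, at 60.2 and 54.7 TPM and -0.88. Atf7 was next at 41.3 and 46.0 TPM, and its counts were not whole, so it shared reads with another gene. Among the Egr relatives and corepressors, Nab1 was at least 2-fold lower with 33.43 and 21.49 TPM (-1.38) and Nab2 at least 2-fold higher with 4.24 and 24.59 TPM (1.91). Wt1, a zinc finger relative of the Egr proteins, was at -1.001, and Egr4 had 0 and 2 counts and was not tested.

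The 24 other immediate early genes held 11 higher and 2 lower in library 2, with a median of 0.94 at 55.2% GC, close to the values of the 10 factors. After removal of the GC trend 2 were higher and 10 lower, with a median of -0.78, where 13.5% of all genes were higher and 11.5% lower. The most abundant were the mRNA decay factors Zfp36l1 (88.5 and 74.7 TPM) and Zfp36 (36.4 and 77.3 TPM) and the small GTPase gene Rhob (45.6 and 110 TPM), with log2 ratios of -0.99, 0.35 and 0.53. Of 12 genes known as AP-1 or Egr targets, 11 were tested, 6 were higher and 1 lower, with a median of 1.44. After removal of the GC trend 5 were higher and 1 lower, with a median of 0.88. The intermediate filament gene Vim had a log2 ratio of 0.21, the metal-binding protein gene Mt1, with 65 and 2272 counts, one of 4.73, and the autophagy receptor gene Sqstm1 one of 1.56.

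**Figure D5:**
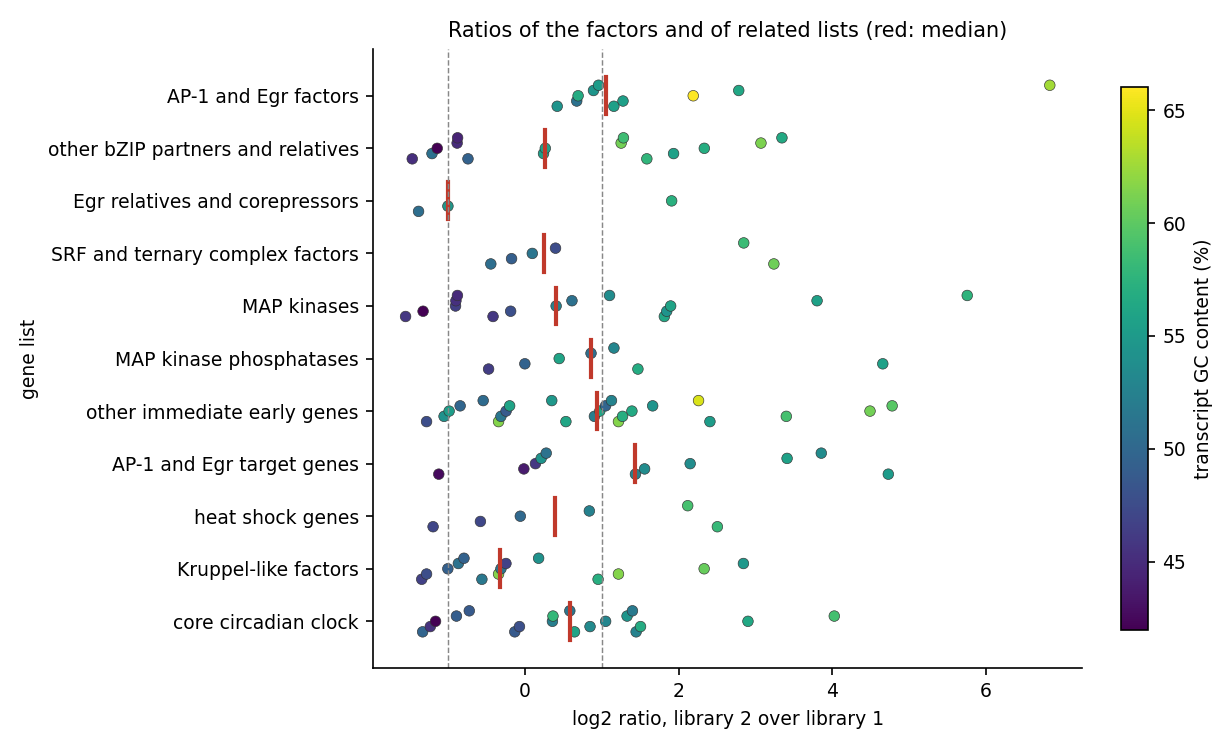
Log2 ratio of library 2 over library 1 (horizontal) of each tested gene, by gene list (vertical), coloured by transcript GC content in percent, with list medians in red and dashed lines at 2-fold. The 10 factors all lie above 0 with a median of 1.06, and genes of low GC content (dark) lie mostly to the left.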

How the data were processed

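Per the labels, polyadenylated RNA was prepared with a kit for lipid-rich tissue, with a size range of 350 to 450 and no unit. Per the text deposited beside the files, mm10 and annotation M4 were used. Neither aligner nor quantifier is named in those sources. The authors deposited expected counts, TPM and FPKM per gene and per transcript, and each transcript's share of its gene as a percent, per the file headers. Their posterior mean counts and TPM served as alternatives.

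Of 69691 gene entries, 43346 carry mouse gene identifiers; the others (0 and 2 counts) were left out. GENCODE M21 gave symbols for 42462, and GC content for 99.3% of the 18275 genes tested (at least 10 counts summed). Expected counts were rounded and scaled by TMM (edgeR 4.0.16), 0.5 was added, and log2 ratios were given 95% Clopper-Pearson intervals. Gene lists were chosen by function: all 10 factors are named, and of each other list up to 3 genes with the highest mean TPM; some items that this rule names are not reported here. The factors and lists were chosen with earlier results of these data known. The GC trend is the median ratio in 40 equal-size GC bins, interpolated. Sequences came from GENCODE M21 transcripts; 5 of the 10 factors had the same transcript length there as in the deposited tables. The ratios and trend removal were tested on simulated counts with a straight-line GC trend. This checks the calculation and not the shape of the trend in these data. Alternatives were DESeq2 1.42.0 size factors, other scalings, pseudocounts, filters, call rules and GC measures. Other software was R 4.3.3, pandas 2.3.3, scipy 1.17.1, numpy 2.4.6 and Python 3.11.15.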

Additional observations from a re-analysis of the deposited data

How the results depend on the processing

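With 1 library on each side no setting gives a replicate test. The number of factors at least 2-fold higher in library 2 was 5. It became 9 with total counts, 9 with the ratio of TPM and 3 at a 3-fold limit. In these settings 38.4%, 42.6% and 23.4% of all genes were higher. With total counts without mitochondrial genes and copies it was 6, beside 32.8% of all genes. Among genes with at least 100 summed counts it was 4, beside 31.3%. It became 1 with the GC trend removed, 2 with GC content taken from the longest transcript and 1 with isoform-weighted GC content, the last 2 chosen after the data were seen. The number at least 2-fold lower was 0, and it became 2, 3 and 3 in those 3 removals. The percent of all genes at least 2-fold higher went from 31.3 to 13.5, 13.7 and 11.1, and the percent at least 2-fold lower from 19.9 to 11.5, 9.18 and 9.53. The median log2 ratio of the factors, 1.06, became 1.497 with total counts and 1.81 with the ratio of TPM, and turned to -0.54, -0.30 and -0.27 in the 3 removals. In those, Jun turned to -0.55, -0.73 and -0.87 and Jund to -1.64, -1.98 and -2.12. Egr1 turned to -0.39 with the mean GC content and -1.35 with that of the longest transcript, and Egr3 to -1.52 with isoform weights. Junb was at least 2-fold higher in all 3 removals, at 2.999, 2.66 and 2.52. The cause of these shifts was not tested. With DESeq2 size factors and posterior mean counts, each factor's ratio moved by less than its counting interval. With a pseudocount of 5, Egr3 went from 2.78 to 1.20 and Junb from 6.83 to 5.98. Leaving out 1 library, the median TPM of the factors, 18.7, ranged from 5.48 to 32.9, and the number at 1 TPM or more from 8 to 9. No paired analysis was possible because there is 1 group. Low counts limit the values of Egr3 in both libraries (1 and 13 counts) and of Junb in library 1 (5 counts).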

Other observations

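The genes named here beyond the 3 most abundant of a list were picked with their values known. The counts of higher and lower genes below stand beside 31.3% and 19.9% of all tested genes. Of 6 heat shock genes, which are also induced on tissue handling, 2 reached 2-fold higher in library 2 and 1 lower, with a median log2 ratio of 0.39. Hspa8 was at 498 and 716 TPM with a log2 ratio of -0.06, Hsp90aa1 at 225 and 146 TPM with -1.19, and Dnajb1 at 12.3 and 36.8 TPM with 0.84. The counts of the first 2 were not whole, so they shared reads with other genes.

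Of 15 Krüppel-like factors, zinc finger factors of which several are themselves immediate early genes, 14 were tested, 3 were higher and 3 lower, with a median of -0.33. Klf6, Klf9 and Klf3 led by level, with log2 ratios of -1.28, -1.002 and -0.56. Klf4 had 909 and 938 counts and a log2 ratio of -0.34 at 61.5% GC, where Junb, at 62.7%, had 5 and 818 counts. Both lie in the bin from 60% to 65% GC, whose quartiles were 2.26 and 5.10, Klf4 under and Junb over them. Of 19 core clock genes, 7 were higher and 3 lower, with a median of 0.59. Bhlhe41, Bhlhe40 and Tef led by level, with log2 ratios of -0.72, 0.59 and 0.85.

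Mt1 and Mt2, which encode metallothioneins, with 65 and 88 counts in library 1 and 2272 and 1677 in library 2, had log2 ratios of 4.73 and 3.86, and 3.20 and 2.89 after removal of the GC trend, at 55.1% and 53.6% GC. Ier2, an immediate early gene at 60.9% GC, had 19 and 573 counts, a log2 ratio of 4.49, and 0.95 after removal of the trend. Among the adipocyte markers 4 of 8 were at least 2-fold higher and 1 lower, and among the epididymis markers 1 of 8 higher and 4 lower. For macrophage markers the counts were 4 and 1 of 6, and for vascular and stromal markers 2 and 0 of 6. Their medians were 1.55, -1.08, 1.75 and 0.20 before and 0.82, 0.09, 0.26 and 0.24 after removal of the GC trend. Macrophages are among the cells that transcribe Egr2, and their part in its level was not tested.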
